A study of Canis lupus familiaris with 8 samples.

Results

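miR-144, miR-451 and miR-185 are microRNAs that are abundant in red blood cells, and 5 listings of them on a canine and murine miRNA array were followed in the serum of Doberman Pinschers. The rule that picked the listings used their names and no measured value, but it was written with earlier results of these data known: mmu-miR-144 and cfa-miR-144 (the murine and the canine listing of the main arm), mmu-miR-144* (the other arm of the same hairpin), cfa-miR-451 and cfa-miR-185. They make up 200 of the 48960 features and 5 of the 1224 miRNA names analysed. A sixth listing of this kind, cfa-miR-486, was not among these 1224 names and could not be analysed here. The mature sequences were not analysed either. All 5 listings passed the filter on dim features, as did 438 of the 1224 names.

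In mammals, miR-144 and miR-451 are cut from one primary transcript that the erythroid factor GATA1 switches on as red cell precursors mature. miR-451 is matured by Argonaute 2 without Dicer and is among the most abundant miRNAs of the mature red cell, while miR-144* is the strand of the miR-144 hairpin that is usually kept at the lower level. miR-185 is another miRNA found in mature red cells. Red cells hold RNA after they have lost their nucleus, and their miRNAs enter serum when they are broken, for which the level of miR-451 against that of miR-23a, a miRNA low in red cells, is a common measure. In the gene table of the canine assembly UU_Cfam_GSD_1.0, MIR144 and MIR451 are direct neighbours on chromosome 9, and MIR185 lies on chromosome 26 between TANGO2 and ARVCF.

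Serum RNA of 8 client-owned Doberman Pinschers was hybridized to 8 arrays of a single slide. The 4 dogs of the DCM group, labelled DoCM5 to DoCM8, had dilated cardiomyopathy in the occult stage and received pimobendan and ACE inhibitors with either sotalol or amiodarone, and the 4 control dogs, labelled Con1 to Con4, had no sign of cardiac disease. The labels give an age of 7 to 11 years for the dogs, although the clinical description in the study gives a lower age for a dog of that group, DoCM8. In both groups the blood clotted for at least 20 minutes before it was spun at 600 g for 5 minutes. Therapy and disease cannot be told apart. The study left out a sample that it calls DoCM8. The array with this label was therefore left out here. Thus 3 DCM arrays were compared with 4 control arrays, with all 8 arrays given beside this.

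Between 10817 and 14000 features per array were well above background and none was saturated. The median log2 signal of the detected names before normalization ran from 3.68 to 5.09, and the array labelled DoCM5 was the brightest. For the sample it left out, the study describes intensified signals and a much lower correlation with the other samples. The numbers of the labels may not match those of the study. The median correlation of the array labelled DoCM5 with the rest was also the lowest, 0.924 against 0.957 to 0.968, and the log2 fold change of a listing is also given with DoCM8 brought back and DoCM5 taken out. Permutation tests over the arrays were exact and two-sided throughout. On the slide the DCM dogs filled one row and the control dogs the other, and row and group cannot be told apart. In serum, fewer broken cells and less of a miRNA per cell cannot be told apart either.

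The signal of cfa-miR-451, an intensity averaged over 40 features and not normalized between arrays, was 212286, 139115, 87679 and 126477 on the arrays labelled DoCM5 to DoCM8. On the control arrays labelled Con1 to Con4 it was 148533, 83331, 163182 and 96842. The groups overlapped, with the highest value on the array labelled DoCM5 and the lowest on the array labelled Con2. Together the 5 listings held 48.8% ± 6.08 (SD, n = 4) on the DCM arrays and 43.8% ± 3.66 (SD, n = 4) on the control arrays of the summed signal of all 1224 names. Almost all of this was cfa-miR-451, with 48.3% ± 6.12 and 43.5% ± 3.66 (SD, n = 4 each) in the same order. The other 4 listings held 0.348% to 0.555% on the DCM arrays and 0.148% to 0.288% on the control arrays, without overlap. Most of this was the signal of mmu-miR-144 and cfa-miR-144, listings of the same miRNA. These were brighter than cfa-miR-185 and mmu-miR-144* on every array. How many of all names separate the groups on this scale was not counted. The share of the 5 listings was highest on the dimmest array, labelled DoCM7, with 54.6%, and lowest on the arrays labelled Con3 and DoCM5, with 39.4% and 40.9%, which had the brightest summed signals. These are shares of brightness and not of molecules, since probes differ in how strongly they bind.

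**Figure D1:**
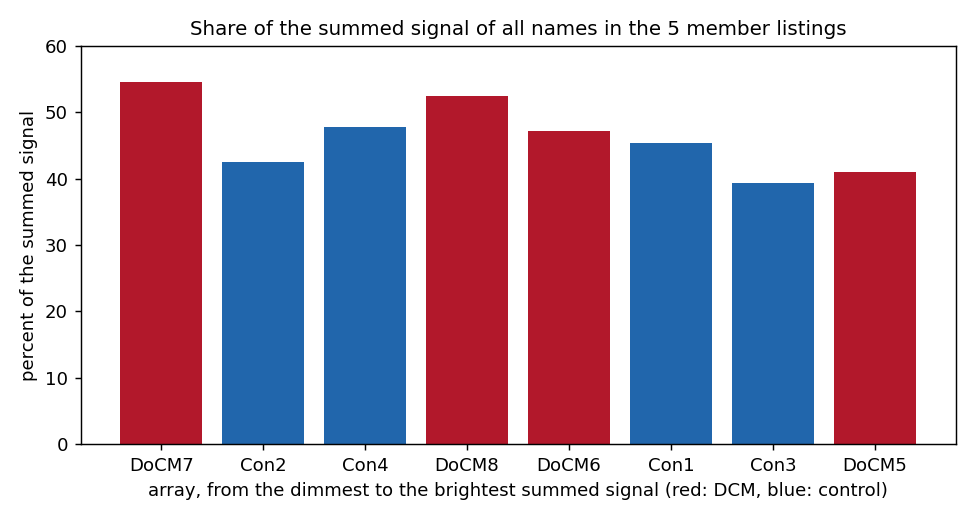
Bars give the percent of the summed signal of all 1224 names held by the 5 member listings on each array (vertical axis, from 0), with arrays ordered from the dimmest to the brightest and coloured by group. The shares run from 39.4% on the array labelled Con3 to 54.6% on the array labelled DoCM7.

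After normalization by the vsn model (glog2 values, on which a step of 1 is close to a doubling of the signal for bright features), mmu-miR-144 was 9.48, 9.43, 9.26 and 10.08 on the arrays labelled DoCM5 to DoCM8 and 8.98, 8.04, 8.83 and 8.48 on the arrays labelled Con1 to Con4. Every DCM array lay above every control array, the array labelled DoCM8 being the highest and the array labelled Con2 the lowest. Over the 7 arrays, the log2 fold change of mmu-miR-144 was 0.81 (standard error 0.34, p = 0.0348 and adjusted p = 0.9996 in limma; exact permutation p = 0.0571), a 1.75-fold difference. Over all 8 arrays it was 0.98 (standard error 0.31, p = 0.00799 and adjusted p = 0.875 in limma; exact permutation p = 0.0286, the smallest that 4 against 4 arrays allow). With DoCM8 in and DoCM5 out it was 1.01 (standard error 0.31, p = 0.00942 and adjusted p = 0.514 in limma; exact permutation p = 0.0286), a 2.01-fold difference.

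The canine listing, cfa-miR-144, was 8.53, 7.90, 7.94 and 8.77 on the DCM arrays and 7.90, 6.82, 7.81 and 7.57 on the control arrays, in the order of their labels. The groups met at 7.90, where the arrays labelled DoCM6 and Con1 had nearly the same value. Its log2 fold change was 0.60 (standard error 0.37, p = 0.131 and adjusted p = 0.9996 in limma; exact permutation p = 0.143), with a 95% interval from -0.21 to 1.40. Over all 8 arrays the log2 fold change was 0.76 (standard error 0.33, p = 0.0417 and adjusted p = 0.961 in limma; exact permutation p = 0.0571). With DoCM8 in and DoCM5 out it was 0.68 and did not pass (standard error 0.34, p = 0.0745 and adjusted p = 0.766 in limma; exact permutation p = 0.0857).

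mmu-miR-144* was the dimmest of the listings, with a signal from 5.12 to 45.3 over the arrays. Its glog2 value was 4.44, 4.78, 4.27 and 4.28 on the DCM arrays and 3.57, 2.90, 3.41 and 2.47 on the control arrays. No control array reached the level of a DCM array. On the arrays labelled Con2 and Con4, 16 and 19 of its 40 features were well above background, less than 50%, while on each of the other arrays at least 36 were. The log2 fold change of mmu-miR-144* was 1.41 (standard error 0.36, p = 0.00230 and adjusted p = 0.9996 in limma; exact permutation p = 0.0286) and 1.36 over all 8 arrays (standard error 0.31, p = 9.11e-04 and adjusted p = 0.399 in limma; exact permutation p = 0.0286). Both exact p-values are the smallest that the arrays allow. With DoCM8 in and DoCM5 out the log2 fold change was 1.36. It rests in part on the dim arrays labelled Con2 and Con4, and it ran from 0.30 to 1.97 over the alternatives, the highest with the median over features.

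cfa-miR-451 was 16.48, 17.05, 17.17 and 17.18 on the DCM arrays and 16.93, 16.91, 16.75 and 17.08 on the control arrays. The array labelled DoCM5 was the lowest of the 8 and the groups overlapped. Over the 7 arrays the log2 fold change was -0.019 (standard error 0.32, p = 0.953 and adjusted p = 0.9996 in limma; exact permutation p = 0.886), with a 95% interval from -0.72 to 0.68, so that a difference of 1.5-fold in either direction lay within the interval. Over all 8 arrays it was 0.050, and without the array labelled DoCM5 in place of the array labelled DoCM8 it was 0.21 (standard error 0.20, p = 0.302 and adjusted p = 0.819 in limma; exact permutation p = 0.0857).

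cfa-miR-185 was 5.86, 5.88, 5.92 and 5.23 on the DCM arrays and 5.17, 5.07, 6.18 and 6.09 on the control arrays. The control arrays fell on both sides of the DCM arrays, with the arrays labelled Con3 and Con4 above and Con1 and Con2 below all of them. The log2 fold change of cfa-miR-185 was 0.26 (standard error 0.37, p = 0.496 and adjusted p = 0.9996 in limma; exact permutation p = 0.429), with a 95% interval from -0.55 to 1.08. It was 0.097 over all 8 arrays and 0.051 with DoCM8 in and DoCM5 out (standard error 0.35, p = 0.886 and adjusted p = 0.978 in limma; exact permutation p = 0.943).

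**Figure D2:**
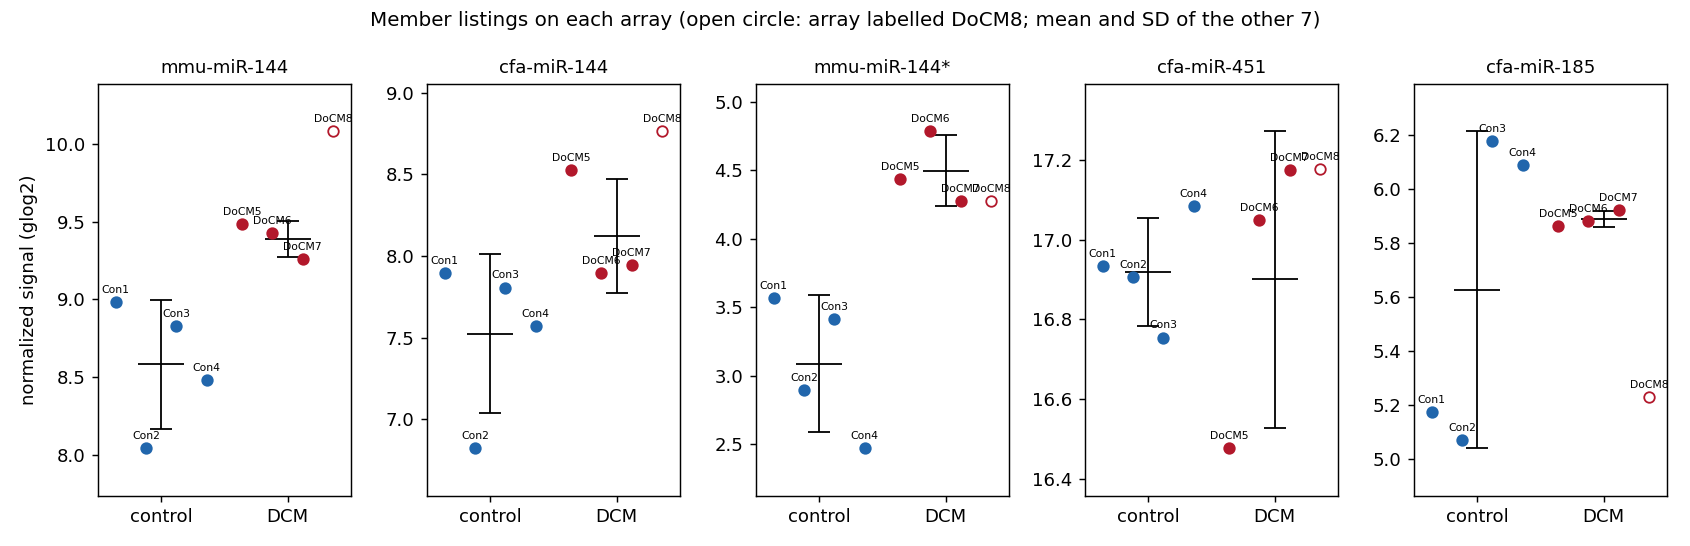
Each panel shows the normalized signal (glog2, vertical axis, own scale per panel) of one listing on the 8 arrays, by group, with the mean and SD of the 7 arrays compared and the array labelled DoCM8 as an open circle. The DCM and control arrays do not overlap for mmu-miR-144 and mmu-miR-144*, and they overlap for cfa-miR-144, cfa-miR-451 and cfa-miR-185.

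With an unadjusted p under 0.05 and a fold change over 1.5, the limits of the methods, 2 of the 5 listings rose in DCM over the 7 arrays (mmu-miR-144 and mmu-miR-144*), against 1.37% of the 438 names tested in this direction. Among all names 1.14% fell, which makes 2.51% in either direction. Over all 8 arrays 3 of the 5 rose, mmu-miR-144, cfa-miR-144 and mmu-miR-144*, against 1.83% of the names, while 2.05% of the names fell and 3.88% passed in either direction. With DoCM8 brought back and DoCM5 taken out, mmu-miR-144 and mmu-miR-144* rose again, against 1.83% of the names. Groups without overlap and higher in DCM were found for the same 2 listings, against 2.74% of the names over the 7 arrays and 1.6% over all 8. The listings of miR-144 and miR-144* come from one hairpin and are not independent of each other. After Benjamini-Hochberg adjustment in limma, 0 of the 438 names passed 0.05, whether over 7 arrays or over all 8, while 11 (2.51%) and 18 (4.11%) had an unadjusted p under 0.05. With 75th percentile scaling over the detected names, 1 name that is none of the 5 listings passed, at an adjusted p of 0.0361 in limma. The median log2 fold change was 0.60 over the 5 listings and 0.0016 over all names. The listing mmu-miR-144 no longer passed both limits when the array labelled DoCM6, DoCM7, Con2 or Con4 was left out. Its log2 fold changes were then 0.79, 0.87, 0.63 and 0.77. It also failed with quantile normalization (0.63), with normexp background correction before it (0.56) and with the column on the slide as a block (0.77). The same held with 75th percentile scaling over the detected names (0.81) and the median over features (0.86). The call of mmu-miR-144* was kept with each of the 7 arrays left out in turn. It was lost with normexp background correction and quantile normalization, where the log2 fold change was 0.30.

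Each listing was measured by 2 probes with 20 features each, and the probes of a listing were compared in a step chosen after seeing the data. The 2 probes of mmu-miR-144 gave the same log2 fold change, 0.81 and 0.81 over the 7 arrays. Those of cfa-miR-144 gave 0.59 and 0.61, those of cfa-miR-451 -0.016 and -0.029, and those of cfa-miR-185 0.25 and 0.27. The probes of mmu-miR-144* differed more, with 1.71 for the dimmer and 1.20 for the brighter probe. The coefficient of variation over the features of one array was 7.22% to 9.24% for mmu-miR-144 and 33.5% to 71.7% for mmu-miR-144*, whose 2 probes differ in brightness.

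Ratios of 2 listings on the same array were compared in 5 cases, as differences of glog2 values. A factor per array cancels in such a ratio for bright listings, but not for a dim one such as mmu-miR-144*, whose glog2 value also depends on the offset of the model. The level of a ratio depends on the probes, and only the change between arrays can be read. The murine listing over the canine listing was 0.96, 1.53, 1.31 and 1.32 on the DCM arrays and 1.08, 1.22, 1.02 and 0.91 on the control arrays, with overlap of the groups. Its difference of DCM from control over the 7 arrays was 0.21 (exact permutation p = 0.257, adjusted over the 5 ratios 0.429). The overlap came from the array labelled DoCM5, since with DoCM8 in and DoCM5 out the difference was 0.33 without overlap (exact permutation p = 0.0571, adjusted 0.286). The listings of one miRNA thus varied against each other by a range of 0.62 over the 8 arrays, while mmu-miR-144 itself ranged over 2.04.

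The ratio of the 2 arms, mmu-miR-144 over mmu-miR-144*, was 5.05, 4.64, 4.99 and 5.81 on the DCM arrays and 5.42, 5.15, 5.41 and 6.01 on the control arrays. The 3 DCM arrays compared lay below all control arrays, and the array labelled DoCM8 lay above 3 of the 4. The difference was -0.60 over the 7 arrays (exact permutation p = 0.0571, adjusted over the 5 ratios 0.286) and -0.38 over all 8 arrays (exact permutation p = 0.257, adjusted 0.429). With DoCM8 in and DoCM5 out it was -0.35, with overlap (exact permutation p = 0.314, adjusted 0.429). The highest ratio was that of the array labelled Con4, where, as on the array labelled Con2, mmu-miR-144* was not well above background, and the difference was -0.43 without the array labelled Con4. It was -0.33 with either 75th percentile scaling (exact permutation p = 0.229), so that the size of this ratio's difference is uncertain.

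mmu-miR-144 over cfa-miR-451, which come from one primary transcript, was -6.99, -7.62, -7.92 and -7.09 on the DCM arrays and -7.95, -8.86, -7.93 and -8.60 on the control arrays. All DCM arrays lay above all control arrays, by 0.011 at the closest pair, the arrays labelled DoCM7 and Con3. The difference was 0.83 over the 7 arrays (exact permutation p = 0.114, adjusted over the 5 ratios 0.286) and 0.93 over all 8 arrays (exact permutation p = 0.0286, adjusted 0.143). The ratio ranged over 1.87 among the 8 arrays, a 3.66-fold range for miRNAs of a shared transcript.

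cfa-miR-451 over cfa-miR-23a, the measure used for red cell RNA in serum, was 4.86, 5.74, 5.69 and 5.62 on the DCM arrays and 5.33, 5.55, 5.19 and 5.89 on the control arrays. The array labelled DoCM5 was the lowest and the groups overlapped. The lowest ratios were those of the arrays labelled DoCM5, Con3 and Con1. These also had the highest median log2 signals before normalization, 5.09, 4.85 and 4.59. The ratio thus still varied with the brightness of the arrays, and the part of the brightness in it was not tested. The difference was -0.064 over the 7 arrays (exact permutation p = 0.8286, adjusted over the 5 ratios 0.8286), and 0.19 without the array labelled DoCM5 in place of the array labelled DoCM8 (exact permutation p = 0.343, adjusted 0.429). Its direction also turned, to 0.070, without the array labelled Con4. cfa-miR-185 over cfa-miR-451 differed by 0.28 over the 7 arrays (exact permutation p = 0.600, adjusted 0.750) and by -0.16 without the array labelled DoCM5 in place of the array labelled DoCM8.

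**Figure D3:**
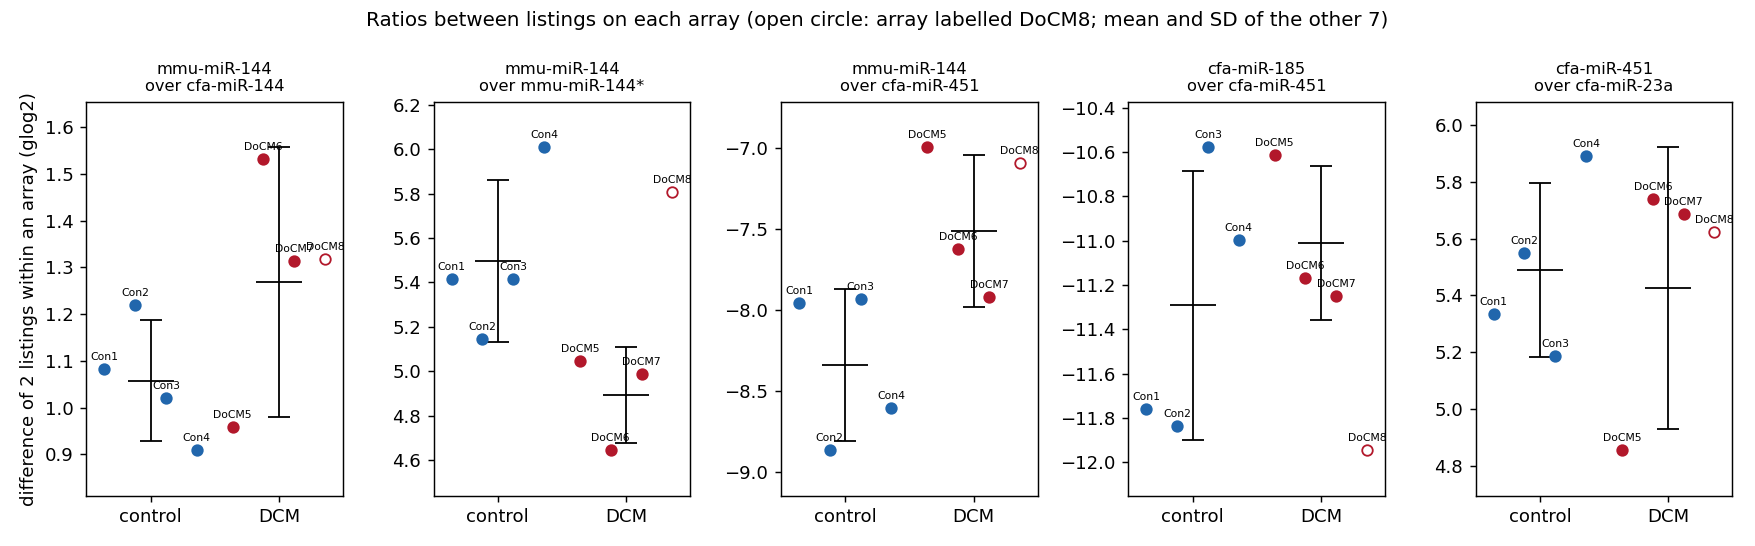
Each panel shows one ratio of 2 listings as a difference of glog2 values on the 8 arrays (vertical axis, own scale per panel), by group, with the mean and SD of the 7 arrays compared and the array labelled DoCM8 as an open circle. The ratio of mmu-miR-144 over cfa-miR-451 is higher on every DCM array than on every control array, and that of cfa-miR-451 over cfa-miR-23a overlaps between the groups.

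Whether the listings rose and fell together over the 8 arrays was examined in 10 pairs. The 2 listings of miR-144 moved together, with a Pearson r of 0.94 (exact permutation p = 8.43e-04, adjusted over the 10 pairs 0.00843) and a Spearman rho of 0.93 (exact permutation p = 0.00223, adjusted 0.0223). Without the arrays labelled DoCM8 and Con2, the farthest from the median, r was 0.79, and with deviations from the group means in place of the values it was 0.91. mmu-miR-144 and mmu-miR-144* had an r of 0.84 (exact permutation p = 0.00900, adjusted 0.0450) and a rho of 0.88 (exact permutation p = 0.00724, adjusted 0.0362), and r was 0.98 without the arrays labelled DoCM8 and Con2. Much of this relation lay between the groups, since r was 0.39 with deviations from the group means. cfa-miR-144 and mmu-miR-144* had an r of 0.68 (exact permutation p = 0.0596, adjusted 0.199) and a rho of 0.71 (exact permutation p = 0.0576, adjusted 0.192). Within a group there are 4 arrays, too few for a correlation.

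No relation of cfa-miR-451 with its transcript partner passed the test on this scale. Its r with mmu-miR-144 was 0.12 (exact permutation p = 0.773, adjusted 0.952; rho 0.26, exact permutation p = 0.536, adjusted 0.935), and with cfa-miR-144 it was -0.069 (exact permutation p = 0.862, adjusted 0.952). Single arrays moved these values in both directions. Without the array labelled DoCM5 r was 0.56 with mmu-miR-144 and 0.50 with cfa-miR-144, and the median over the 10 pairs was 0.45. Without the array labelled DoCM8 r was -0.19 and -0.41, and without the arrays labelled DoCM8 and Con2, the farthest from the median, it was -0.29 and -0.74, in the same order. The listing cfa-miR-185 had an r between -0.16 and 0.12 with the other 4 listings, and these values moved as widely. With mmu-miR-144 its r ran from -0.53 without the array labelled Con2 to 0.41 without the array labelled DoCM8, and with cfa-miR-144 from -0.53 to 0.49 without the same arrays. The median r over the 10 pairs was 0.089, and over all 95703 pairs of the detected names it was -0.025, with 50% of these pairs between -0.41 and 0.40. The relation of miR-144 with miR-451 also turned on the scaling. With each array divided by the 75th percentile of all 1224 names, r of mmu-miR-144 and cfa-miR-451 was 0.92 and the median over the 10 pairs 0.80, and with the vsn model on all names without a filter they were 0.96 and 0.79. With the 75th percentile of the detected names the median was 0.055. The median over all pairs of names is given only for the vsn model on the detected names. The medians under the other scalings therefore have no such value to be set against. The difference of DCM from control in the ratio of mmu-miR-144 over cfa-miR-451 was 0.82 with both 75th percentile scalings, since a factor per array cancels in a ratio.

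On the normalized scale cfa-miR-451 ran against the brightness of the arrays. Its r with the median log2 signal before normalization was -0.88 (exact permutation p = 0.00308, adjusted over 6 relations 0.0185; rho -0.74, exact permutation p = 0.0458, adjusted 0.138). Without the arrays labelled DoCM5 and Con3, the brightest, r was -0.56, so that much of the relation rests on these arrays. Of the 438 detected names, 7.08% had an r as low. For the other 4 listings r lay between 0.15 and 0.33, and for cfa-miR-23a it was 0.59 (exact permutation p = 0.127, adjusted 0.381). Without the arrays labelled DoCM5 and Con3 the r of cfa-miR-185 was -0.39, and its rho over all 8 arrays was -0.048. The part of the brightness in the values of cfa-miR-451 was not tested.

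**Figure D4:**
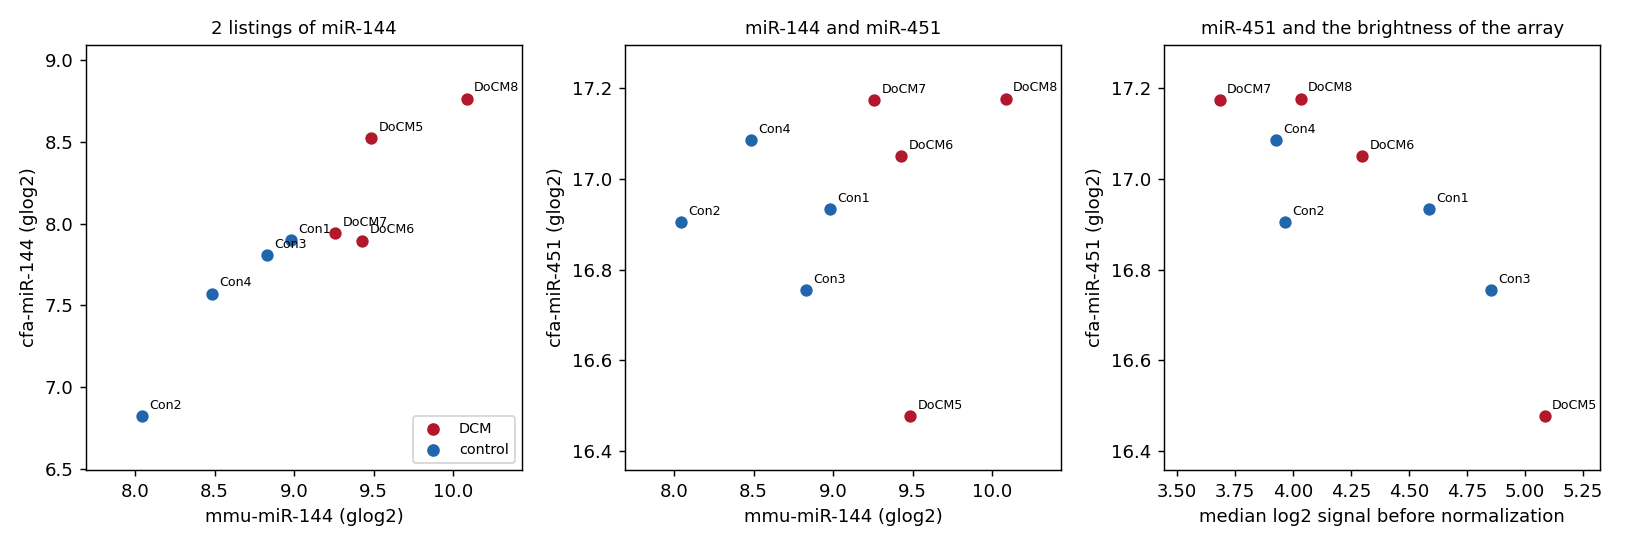
Points are the 8 arrays, coloured by group, with glog2 values on the axes of the left and middle panels and the median log2 signal before normalization on the horizontal axis of the right panel. The 2 listings of miR-144 rise together (r = 0.94), cfa-miR-451 and mmu-miR-144 are scattered (r = 0.12), and cfa-miR-451 falls as the arrays get brighter (r = -0.88).

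Of 344 other names with at least 50% of their features kept, those most like mmu-miR-144 over the 8 arrays were cfa-miR-219 (r = 0.92), cfa-miR-29b (0.90), mmu-miR-101c (0.89), cfa-miR-101 (0.89) and cfa-miR-17 (0.89). The same 5 names came first with both 75th percentile scalings and 3 of them with quantile normalization. Those most like cfa-miR-451 were mmu-miR-150*, mmu-miR-1934*, mmu-miR-1941-5p, mmu-miR-5124 and mmu-miR-680, with r from 0.94 to 0.90. They are dim murine listings with signals between 25.2 and 108.6 on all arrays, and their r with the brightness of the arrays was between -0.95 and -0.86, close to that of cfa-miR-451. With 75th percentile scaling over all names 0 of these 5 names came first again, and 1 over the detected names. These correlations over 8 arrays are descriptions, since the names were picked as the highest.

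**Figure D5:**
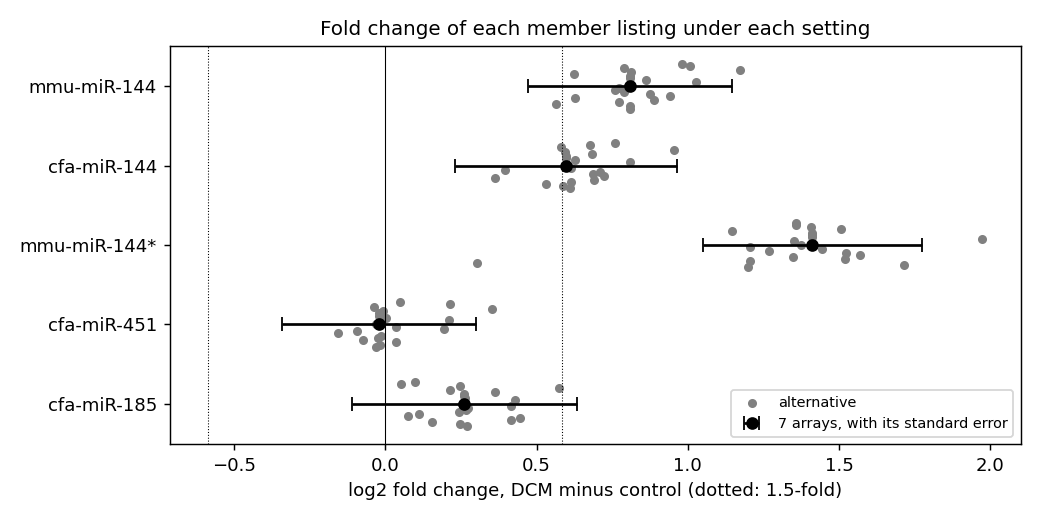
Black points give the log2 fold change of each listing (horizontal axis, DCM minus control) over the 7 arrays with its standard error, and grey points the same under each alternative setting and for each probe alone. The values of mmu-miR-144, cfa-miR-144, mmu-miR-144* and cfa-miR-185 stay above 0, those of cfa-miR-451 fall on both sides of 0.

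Other miRNAs abundant in red cells or their precursors were taken from a list of 21 names (among them miR-16, miR-25, miR-92a and miR-107), of which 23 listings were detected and 6 were not. None passed the limits in either direction over the 7 arrays or over all 8, against 2.51% and 3.88% of all names, with a median log2 fold change of 0.21 and 0.10, against 0.0016 and -0.00067 over all names. The summed level of this list was 14.40 to 15.21 on the log2 scale on the DCM arrays and 14.15 to 14.76 on the control arrays. Of the names that fall while erythroid cells mature (miR-221, miR-222, miR-155 and miR-150, of which the last pair is also in the leukocyte list), 6 listings were detected and 0 passed.

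Markers of other cells that serum RNA can hold were read in the same way. Of 9 detected leukocyte listings 1 rose, against 1.37% of all names, namely mmu-miR-142-3p, by 1.23 on the log2 scale over the 7 arrays (standard error 0.38, limma adjusted p = 0.9996) and 1.28 over all 8. Its direction was that of miR-144 and miR-144*. The summed level of the leukocyte list was 12.69 to 13.60 on the log2 scale on the DCM arrays and 13.13 to 13.55 on the control arrays. Of 7 platelet listings 0 passed, with summed levels of 11.71 to 12.70 and 12.07 to 12.32 in the same order. Of 4 detected heart and skeletal muscle listings 1 fell over the 7 arrays, against 1.14% of all names, namely mmu-miR-208a-5p at -1.19 on the log2 scale (standard error 0.37, limma adjusted p = 0.9996), and 0 passed over all 8; cfa-miR-133a, cfa-miR-208a and cfa-miR-208b were not detected. The summed level of this list was 6.92 to 7.42 on the DCM arrays and 6.81 to 8.60 on the control arrays. The liver miRNA miR-122 did not pass, with a log2 fold change of -0.77. The summed levels of the leukocyte, platelet, muscle and liver lists overlapped between the groups, and their part in the values of miR-144 was not tested.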

How the data were processed

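Total RNA from serum of 8 dogs was labelled with Cy3 and hybridized to 8 one-colour custom miRNA arrays. The authors deposited the output of Agilent Feature Extraction 10.7.3.1, a background-subtracted intensity per feature, not normalized between arrays, and a table of the same values. Genome coordinates did not enter the measured values, and the gene table was read only for chromosomes and neighbouring genes.

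Features that the scanner software called well above background on 2 or more arrays of either group were kept (13423), features with outlier flags were left out, and the mean per name was normalized over all 8 arrays by the vsn model in an own implementation (least trimmed squares, quantile 0.9, 5 slices, 7 iterations). Comparisons used limma 3.58.1 in R 4.3.3, adjusted over 438 names; both steps were tested on simulated data. The arrays were also compared by two-sided exact permutation tests. Array numbers were taken from the labels. Each array is 1 dog, and the number of arrays limits the precision.

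The text names the member listings, miR-23a, the 5 names most like cfa-miR-451 and mmu-miR-144, and listings of the marker lists past the limits. Members and lists were chosen with earlier results of these data known. Alternatives covered arrays, normalization, signal column, averaging, filter, flags, slide column and each array left out. The planned ratio with cfa-miR-486 was not run, since this listing was not among the names analysed.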

Additional observations from a re-analysis of the deposited data

Results flagged for a closer look

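In 2 of 22 groups of 4 arrays examined, an array stood apart from the others by a gap beyond Dixon's 95% limit for 4 values. About 1 group in 20 exceeds it by chance. The array labelled DoCM8 had a glog2 value of 5.23 for cfa-miR-185, below the other DCM arrays, which lay between 5.86 and 5.92, and the gap was 0.913 of the range. The array labelled DoCM5 had a ratio of cfa-miR-451 over cfa-miR-23a of 4.86, below the other DCM arrays, which lay between 5.62 and 5.74, and the gap was 0.871 of the range. It was also the brightest array before normalization.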

How the results depend on the processing

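Log2 fold changes (DCM minus control) over the 7 arrays are the base. mmu-miR-144 (0.81) no longer passed both limits with 75th percentile scaling over the detected names (0.81), quantile normalization (0.63), the slide column as a block (0.77), the median over features (0.86) and normexp correction with quantile normalization (0.56), and ran from 0.63 to 0.94 with an array left out. cfa-miR-144 passed over all 8 arrays (0.76) and ran from 0.36 to 0.72 with an array left out. With 75th percentile scaling over all names it was 0.95 and did not pass. mmu-miR-144* failed only with normexp (0.30), whose offset of 50 exceeds its signal on every array, and ran from 1.21 to 1.57. cfa-miR-451 (-0.019) changed sign over all 8 arrays (0.050), without the array labelled DoCM5 in place of DoCM8 (0.21), with 75th percentile scaling over all names (0.35), the median over features (0.0026), no filter (0.21) and the slide column (0.036), and ran from -0.16 to 0.19. cfa-miR-185 ran from 0.076 to 0.44 and was 0.57 with 75th percentile scaling over all names. 75th percentile scaling moved the median of all names to 0.11 (all names) and -0.25 (detected names).

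The count past both limits, 11 (6 higher, 5 lower), was 17 over all 8 arrays, 23 without the array labelled DoCM5 in place of DoCM8, 23 with 75th percentile scaling over the detected names (2 higher, 21 lower), 41 with no filter, 7 with at least 50% of the features kept and 2 with normexp, and ran from 9 to 32 with an array left out, 28 and 32 being those without DoCM5 and DoCM6. The ratio of the listings of miR-144 turned with quantile normalization (-0.058; 0.079 to 0.36 with an array left out). That of the arms had an unadjusted exact permutation p under 0.05 with quantile normalization (-0.79), turned with normexp (0.26), was -0.33 with both 75th percentile scalings, -0.32 with no filter and -1.11 with the median over features, and ran from -0.72 to -0.43. The ratio of mmu-miR-144 over cfa-miR-451 had an unadjusted exact permutation p under 0.05 over all 8 arrays (0.93), not after adjustment over the 5 ratios, and ran from 0.57 to 1.03. cfa-miR-185 over cfa-miR-451 turned without DoCM5 in place of DoCM8 (-0.16) and ran from 0.082 to 0.52. cfa-miR-451 over cfa-miR-23a turned there (0.19) and ran from -0.22 to 0.22. The median r over the pairs was 0.80 with 75th percentile scaling over all names, 0.79 with no filter and -0.026 with deviations from group means, and ran from -0.13 to 0.45, negative only without Con2 and highest without DoCM5. Quantile normalization gives cfa-miR-451, the brightest name on each array, one value, so its own result has none there. The shares of summed signal stayed within 1 SD under each of the 5 alternatives, of which the total signal of the scanner software was chosen after seeing the data. The causes were not tested. No array number occurs in both groups, so the numbers pair no dogs. The slide column, used as a block above, pairs arrays by position, and without DoCM8 the array labelled Con4 has no partner in its column and adds nothing to that fit.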
